A study of Rattus norvegicus with 18 samples.

Results

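Chronic immobilization stress was compared with handling alone in the amygdala, hippocampus and cortex of rats, and the response that the 3 regions have in common is described here. For every probe set the difference stress minus handled was taken in each region on a log2 scale, and the 3 differences were averaged with equal weights to give the shared change. All 18 arrays of the series enter, and of the 31042 probe sets that are not controls, 9710 (31.3%) had 1 sign of the difference in all 3 regions, 4781 (15.4%) higher and 4929 (15.9%) lower under stress. There are 6 groups of 3 arrays, namely amygdala, hippocampus and cortex of rats under chronic immobilization stress and the same 3 regions of rats that were handled without stress. The labels give no schedule, strain, age or sex.

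Region was read from the array titles and descriptions, because the source field names the amygdala for every array. On the handled arrays the summed intensity of 10 hippocampal markers was 8020 to 8598 in hippocampus, 2644 to 2735 in amygdala and 3033 to 3191 in cortex. That of 9 amygdala markers was 5555 to 5920 in amygdala, 1219 to 1379 in hippocampus and 2242 to 2327 in cortex. The 13 neocortex markers did not set the cortex apart, with 5155 to 5386 in cortex, 5310 to 5488 in hippocampus and 4860 to 5013 in amygdala. Nothing in the labels ties arrays to animals, within a group or across regions, so p-values reflect the variation among these arrays alone, which may be technical, and averaging the regions treats their arrays as independent.

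Immobilization drives the hypothalamic-pituitary-adrenal axis, and the released corticosterone acts on brain cells through the glucocorticoid and mineralocorticoid receptors, which regulate transcription. Amygdala, hippocampus and neocortex all carry these receptors, yet chronic stress is known for opposite effects on neuronal shape in amygdala and hippocampus. A response common to the regions is therefore of interest beside the regional ones.

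A probe set is called when its shared change has an adjusted p under 0.05 (limma, Benjamini-Hochberg over all 31042 probe sets). By this rule 689 probe sets (2.22%) were called, 210 higher (0.677%) and 479 lower (1.54%). Of the 689, 649 (2.09% of all probe sets) had 1 sign in all 3 regions, 204 higher and 445 lower. Since the mean and the signs come from the same arrays, this share of 94.2% is a description. The 649 stood for 438 named genes, 148 with a higher and 297 with a lower probe set, and 180 of the probe sets had no gene symbol. Changes were small, with a median shared change of 0.23 among the higher and -0.34 among the lower on the log2(intensity + 16) scale used throughout. Only 61 of the 649 moved by 1.5-fold or more. Called higher were 381 probe sets without the first amygdala stress array and 129 without the third cortex stress array. Without the trend of the variance with intensity 250 were called, and 183 were called in a mean of hippocampus and cortex without the amygdala.

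In the median the higher probe sets changed by about the same amount in each region and the lower ones most in amygdala. Among the 204 higher probe sets the median change was 0.23 in amygdala, 0.22 in hippocampus and 0.23 in cortex, and the region with the largest change was the amygdala for 69, the hippocampus for 63 and the cortex for 72. Among the 445 lower probe sets the medians were -0.46, -0.28 and -0.24 in the same order, and the amygdala had the largest change for 277 of them. The smallest regional change was at least 0.5 of the largest for 80 of the higher (39.2%) and 158 of the lower (35.5%). A change of at least 0.2 in every region was reached by 45 higher and 203 lower probe sets. The difference between regions was itself tested by an F test in limma, which called 23 of all probe sets (0.0741%) and 6 of the 649. The count of 23 was 13 without amygdala handled array 3 and 37 without amygdala stress array 3.

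In most cases a single region did not pass alone. Tested region by region, 356 probe sets (1.15%) were called in amygdala, 56 (0.18%) in hippocampus and 48 (0.155%) in cortex. Of the 649, 395 were called in none of the 3 regions alone, 220 in 1 region, 24 in 2 and 10 in all 3. Regional counts leaned on single arrays. In amygdala 237 were called without stress array 2, 226 without handled array 2 and 120 without handled array 3. In hippocampus 24 were called without stress array 2, 29 without stress array 3, 29 without handled array 1 and 27 without handled array 2. In cortex 24 to 27 were called when any 1 of its 6 arrays was left out, and 96 without amygdala stress array 1. A simple reading of the arrays gave a related picture: the stress arrays lay entirely to 1 side of the handled arrays, the same side in each region, for 207 probe sets (0.667%), above them for 66 (0.213%) and below them for 141 (0.454%). Of these, 187 were among the 649.

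**Figure D1:**
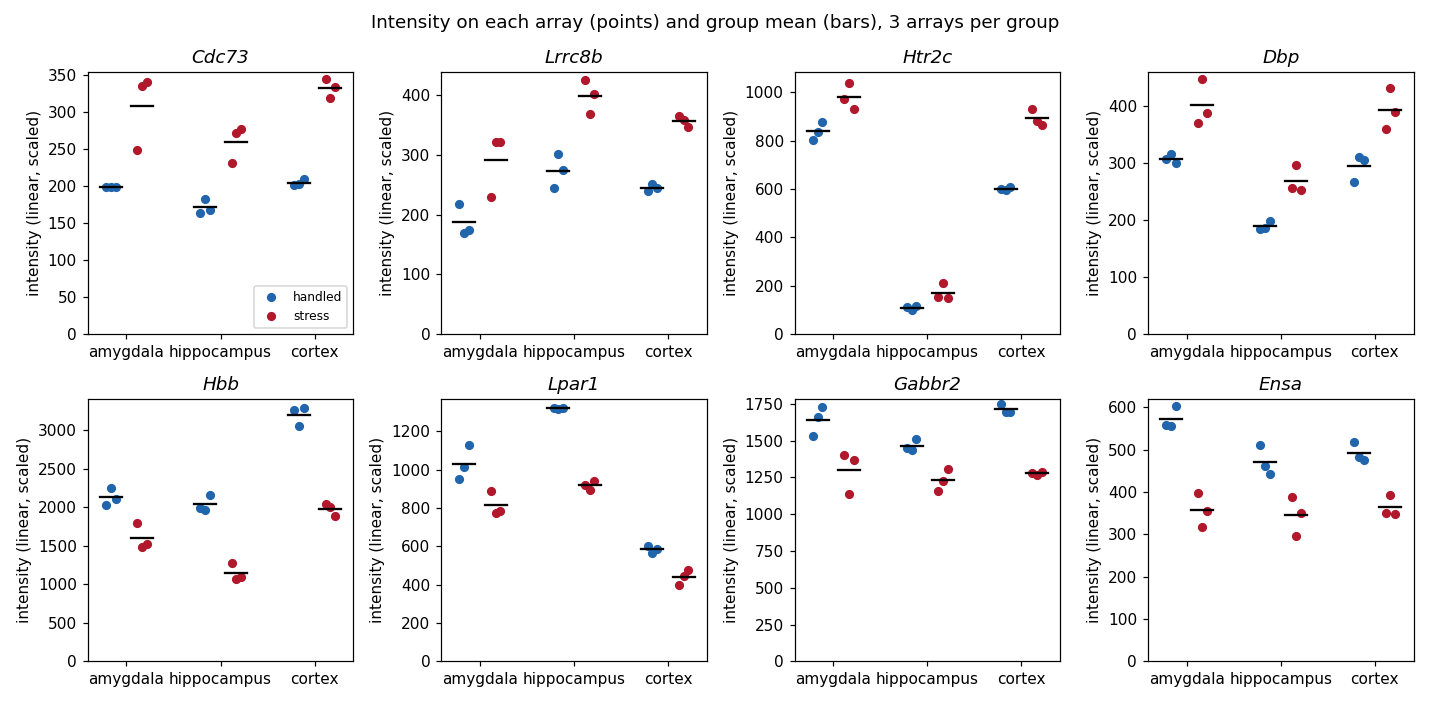
Intensity (linear, scaled by the authors) on each array for 4 genes that were higher and 4 that were lower under stress, by region. Points are arrays, 3 per group, and bars are group means. Stress and handled points do not overlap in any region for any of the 8 genes.

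Haemoglobin transcripts fell in all 3 regions. Of the 10 probe sets called in each region alone, 6 are annotated to haemoglobin genes, 5 of them to more than 1 gene of an alpha-like or beta-like pair, so that only Hbb, the beta chain, is named. On the Hbb probe set the stress arrays read 1800, 1489 and 1529 in amygdala, 1278, 1067 and 1092 in hippocampus and 2050, 2002 and 1885 in cortex. Handled arrays read 2031, 2258 and 2104 in amygdala, 1989, 1968 and 2163 in hippocampus and 3264, 3055 and 3295 in cortex. Every stress array was below every handled array of its region, by a mean log2 change of -0.41, -0.83 and -0.69. The shared change was -0.64 ± 0.04 (SE; limma adjusted p = 1.84e-08). Haemoglobin genes are near-identical copies and a probe set can bind RNA of several, so the separate genes are uncertain.

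All 7 haemoglobin probe sets on the array were called lower and were lower in each region. The largest change, on the beta-like probe set 1371245_a_at, was -0.91 ± 0.06 (SE; limma adjusted p = 1.93e-08). Its stress arrays read 500, 497 and 445 in hippocampus against 1034, 1007 and 1128 on the handled arrays. The alpha-chain gene Hba-a3, the dimmest of the 7, changed by -0.52 ± 0.11 (SE; limma adjusted p = 0.012). Haemoglobin is the product of red blood cells. Of the 5 red blood cell markers measured by name, 5 had a shared change below 0 and Hbb alone was called, while Alas2, which makes haem in red cells, changed by -0.52 with an adjusted p of 0.0598 (limma). The summed intensity of the 5 was 2309 to 2662 under stress and 2833 to 3171 with handling in amygdala, 1707 to 1916 and 2645 to 2927 in hippocampus, and 2817 to 3006 and 3995 to 4296 in cortex. Hbb is 1 of the 5 and made up most of each of these sums. Of the 5 markers, 2 were lower in all 3 regions. Their median change was -0.05 in amygdala, -0.46 in hippocampus and -0.4 in cortex. In bulk tissue fewer cells of a type and less RNA per cell cannot be told apart. The part of blood content in the other changes was not tested.

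Cdc73 was the only probe set called higher in each region alone. It encodes parafibromin, a subunit of the PAF1 complex that travels with RNA polymerase II. Its stress arrays read 249, 335 and 340 in amygdala, 231, 272 and 277 in hippocampus and 345, 319 and 334 in cortex. With handling the intensities were 199, 198 and 199, then 163, 183 and 167, then 202, 203 and 209 in the same order of regions. No group overlapped its control, and the first amygdala stress array was the closest. The regional changes of 0.58, 0.56 and 0.66 gave a shared change of 0.60 ± 0.06 (SE; limma adjusted p = 2.71e-06).

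Lpar1, a receptor for lysophosphatidic acid that is abundant in oligodendrocytes, was the lower gene called in each region alone besides the haemoglobins. Its stress arrays read 887, 772 and 785 in amygdala, 922, 893 and 940 in hippocampus and 400, 448 and 476 in cortex. The handled arrays read 952, 1015 and 1129, then 1321, 1316 and 1322, then 603, 565 and 587. The groups did not overlap, and the shared change was -0.42 ± 0.04 (SE; limma adjusted p = 4.56e-06). Another probe set of Lpar1 was also called lower. The remaining 2 of the 10 probe sets, 1376208_at and 1375664_at, have no gene symbol in the annotation and both changed by -0.55. The count of 10 was 6 without amygdala handled array 3, and 0 without the variance trend.

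Several of the 15 higher genes with the largest shared change were above 0 by similar amounts in the 3 regions. Lrrc8b, a subunit of volume-regulated anion channels, read 229, 322 and 321 under stress against 218, 169 and 174 in amygdala, 426, 369 and 402 against 244, 302 and 274 in hippocampus, and 365, 359 and 347 against 240, 251 and 245 in cortex. Its stress arrays were above the handled arrays everywhere, narrowly so for 1 amygdala array, and the shared change was 0.54 (SE 0.065; limma adjusted p = 4.85e-05). Zcchc7, which belongs to a nuclear RNA surveillance complex, changed by 0.42, 0.41 and 0.49 in amygdala, hippocampus and cortex. Smc5, a chromosome maintenance protein that is not among the 15 but was named for its small p, changed by 0.37, 0.40 and 0.37. Armc9, a protein of the cilium base, changed by 0.38, 0.50 and 0.36. Ypel4 changed by 0.32, 0.48 and 0.42. Pip5k1a, a lipid kinase that makes phosphatidylinositol 4,5-bisphosphate, was less even, with 0.33, 0.73 and 0.50. For Zcchc7, Smc5, Armc9, Ypel4 and Pip5k1a the stress and handled arrays did not overlap in any region.

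Htr2c encodes the serotonin 2C receptor and was the 1 gene called among 13 serotonin receptors, whose median shared change was 0.05. Its stress arrays read 973, 1038 and 933 in amygdala, 152, 211 and 150 in hippocampus and 932, 883 and 865 in cortex. The handled arrays read 802, 838 and 877, then 114, 99.2 and 117, then 599, 595 and 609. The groups were apart in each region although the hippocampal level was far below the others. The change was 0.22 in amygdala and 0.56 in both other regions, with a shared change of 0.45 ± 0.05 (SE; limma adjusted p = 4.88e-05). Ildr2, a membrane protein of the immunoglobulin superfamily, had the same order, with 0.11 in amygdala, 0.56 in hippocampus and 0.58 in cortex. For neither gene did the F test between regions pass (limma adjusted p = 0.574 for Htr2c and 0.242 for Ildr2).

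Eml2, which binds microtubules, had the largest change among the named higher genes, at 0.70 ± 0.16 (SE; limma adjusted p = 0.0163). This was made of 0.89 in amygdala, 0.09 in hippocampus and 1.13 in cortex, and its arrays overlapped in all but 1 region. Rtp4, an interferon-induced chaperone of receptors, changed by 1.10, 0.48 and 0.23. RT1-T24-3, a class I major histocompatibility gene, changed by 0.72, 0.71 and 0.29 with no overlap in any region. In cortex 1 stress and 1 handled array both read 115 and were only just apart. Such genes have near copies, so the identity of RT1-T24-3 is uncertain. Ap5z1, an adaptor subunit, and Bambi, a decoy receptor of the transforming growth factor family, changed by 0.66 and 0.61 at mean intensities of only 14.9 and 22.1. Scn4b, a sodium channel beta subunit, changed by 0.96 in amygdala but by 0.05 and 0.15 in the other regions, and it is also a marker of striatal neurons. The call of Bambi held in 8 of 29 other settings.

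**Figure D2:**
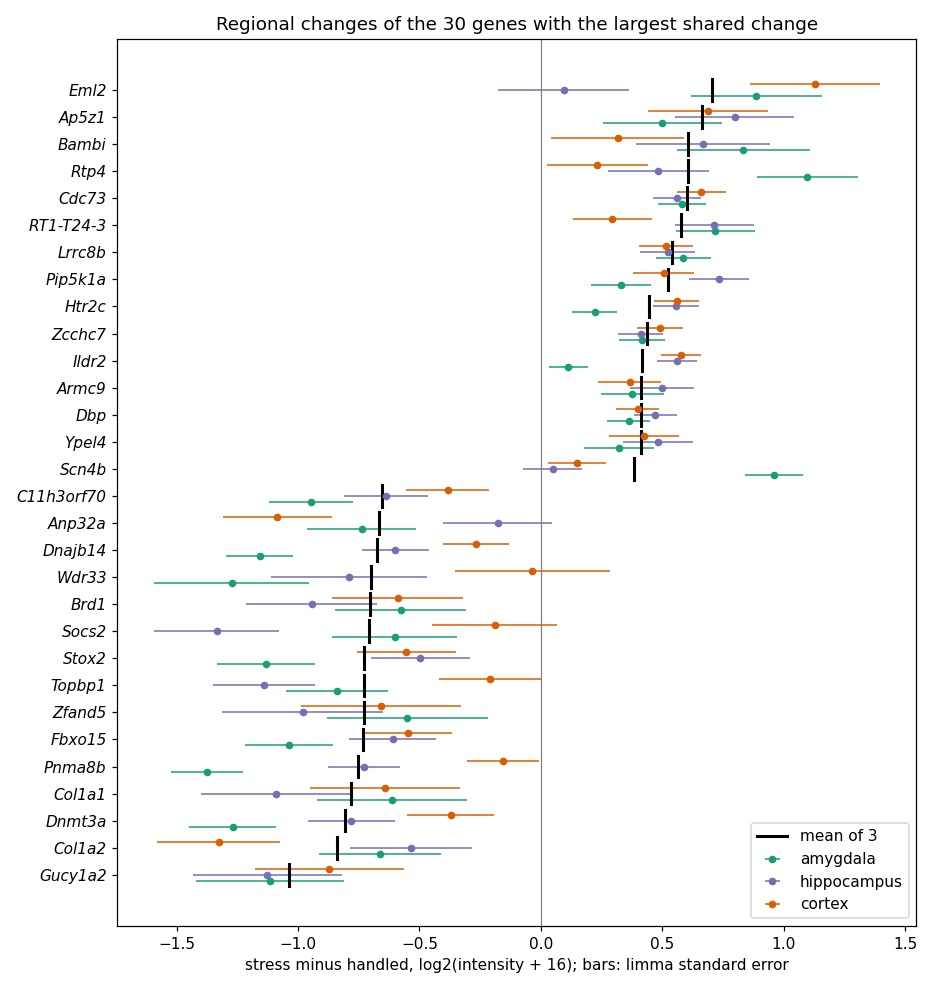
Change under stress (log2 scale, horizontal axis) of the 30 named genes with the largest shared change among those of 1 sign, 15 higher and 15 lower. Points are the 3 regions with limma standard errors and black bars are the mean of the 3, so that genes such as Cdc73, with points close together, can be told from Scn4b, where the amygdala stands off.

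In the circadian clock 3 genes rose and 1 fell. Of 20 clock genes measured, Dbp, Nr1d2 and Bhlhe41 were called higher and Hlf lower, with a median shared change of 0.03, against 363 of 14217 named genes called (2.55%; 1 probe set per gene, 130 higher and 233 lower) and a median of 0.0. Dbp, a transcription factor under direct control of the core clock, read 370, 447 and 388 under stress in amygdala, 257, 297 and 253 in hippocampus and 360, 432 and 389 in cortex. Handled arrays of Dbp read 307, 316 and 301, then 184, 186 and 198, then 267, 311 and 305. The groups did not overlap, and the shared change was 0.41 ± 0.05 (SE; limma adjusted p = 7.52e-05).

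Nr1d2, the nuclear receptor REV-ERB beta that represses clock genes, read 736, 720 and 689 in amygdala, 560, 582 and 568 in hippocampus and 844, 796 and 778 in cortex under stress. With handling it read 588, 569 and 603, then 445, 470 and 434, then 694, 682 and 716. Every stress array was again above every handled array, at 0.27 ± 0.03 (SE; limma adjusted p = 4.85e-05), and another of its probe sets was called in the same direction. Bhlhe41, the repressor DEC2, changed by 0.22 ± 0.04 and did not overlap in 2 regions. Hlf, a relative of Dbp, changed by -0.27 ± 0.05, mostly in amygdala at -0.42. The other 16 clock genes did not pass, among them Per1 at -0.18, Per2 at 0.10, Per3 at 0.18, Bmal1 at -0.15, Clock at -0.13 and Nr1d1 at -0.09 in shared change.

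The promoters of these genes are shown because the core clock binds E-boxes, whose canonical letters are CACGTG. In the window from 250 bases before to 50 after the gene start, taken from RefSeq (GRCr8) and read on both strands, CACGTG occurred in 21 of the 126 higher genes that had a window (16.7%), in 16 of 226 lower genes (7.08%) and in 1097 of all 11734 measured genes (9.35%). The 250 bases before the start are printed for Dbp (chr1:105312006-105312255, plus strand) and for Bhlhe41 (chr4:180569356-180569605, minus strand), with CANNTG in capitals, a looser form that includes CACGTG.
Dbp: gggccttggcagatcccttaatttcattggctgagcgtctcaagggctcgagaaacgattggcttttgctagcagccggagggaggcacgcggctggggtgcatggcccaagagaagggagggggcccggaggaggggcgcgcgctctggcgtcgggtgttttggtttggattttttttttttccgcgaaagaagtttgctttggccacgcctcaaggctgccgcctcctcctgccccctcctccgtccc
Bhlhe41: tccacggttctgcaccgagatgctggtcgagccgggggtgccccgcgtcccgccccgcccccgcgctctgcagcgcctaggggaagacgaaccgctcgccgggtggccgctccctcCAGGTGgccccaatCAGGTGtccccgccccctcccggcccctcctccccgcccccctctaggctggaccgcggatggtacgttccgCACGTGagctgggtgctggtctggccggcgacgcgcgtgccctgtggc
Bhlhe41 holds 3 such matches, 1 of them CACGTG, while these letters are not in the Dbp or the Nr1d2 window; 67.0% of 27457 genes hold CANNTG in windows of this length. The D-box TTATGTAA occurred in 2 higher, 1 lower and 67 measured genes, and the cAMP response element TGACGTCA in 3, 9 and 344. A match is a description of letters and not a binding site.

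RNA-binding and splicing genes lay mostly above 0 in shared change. Of 36 measured, 26 had a shared change above 0 and 19 were higher in all 3 regions. The test called 7 of them higher and 1 lower, and the median shared change was 0.09. Over all 14217 named genes, 7326 had a shared change above 0 and 2386 were higher in all 3 regions. Of the 14217, 130 were called higher (0.914%) and 233 lower (1.64%), with a median of 0.0. The 7 called higher include Cdc73, the PAF1 complex subunit described above, which is not itself a splicing factor. The others included Clk1, a kinase of splicing factors (0.24), Tardbp, the RNA-binding protein TDP-43 (0.26), and Hnrnpa2b1 (0.20). Also among them were the splicing factors Srsf11 (0.19) and Luc7l3 (0.15), and Rbm3, a cold-induced RNA-binding protein (0.19). Rbm3 read 725, 761 and 684 under stress against 614, 608 and 645 in amygdala, 817, 866 and 759 against 684, 669 and 757 in hippocampus, and 700, 684 and 703 against 618, 658 and 583 in cortex. Its groups did not overlap in any region, although 1 hippocampal pair was only just apart. Srrm2, a large splicing scaffold, was the lower one at -0.32. The call of Hnrnpa2b1 held in 8 of 30 other settings and that of Luc7l3 in 19. Srsf11 missed the threshold without amygdala stress array 2 (limma adjusted p = 0.0518), cortex stress array 3 (0.0553) or cortex handled array 2 (0.0549).

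**Figure D3:**
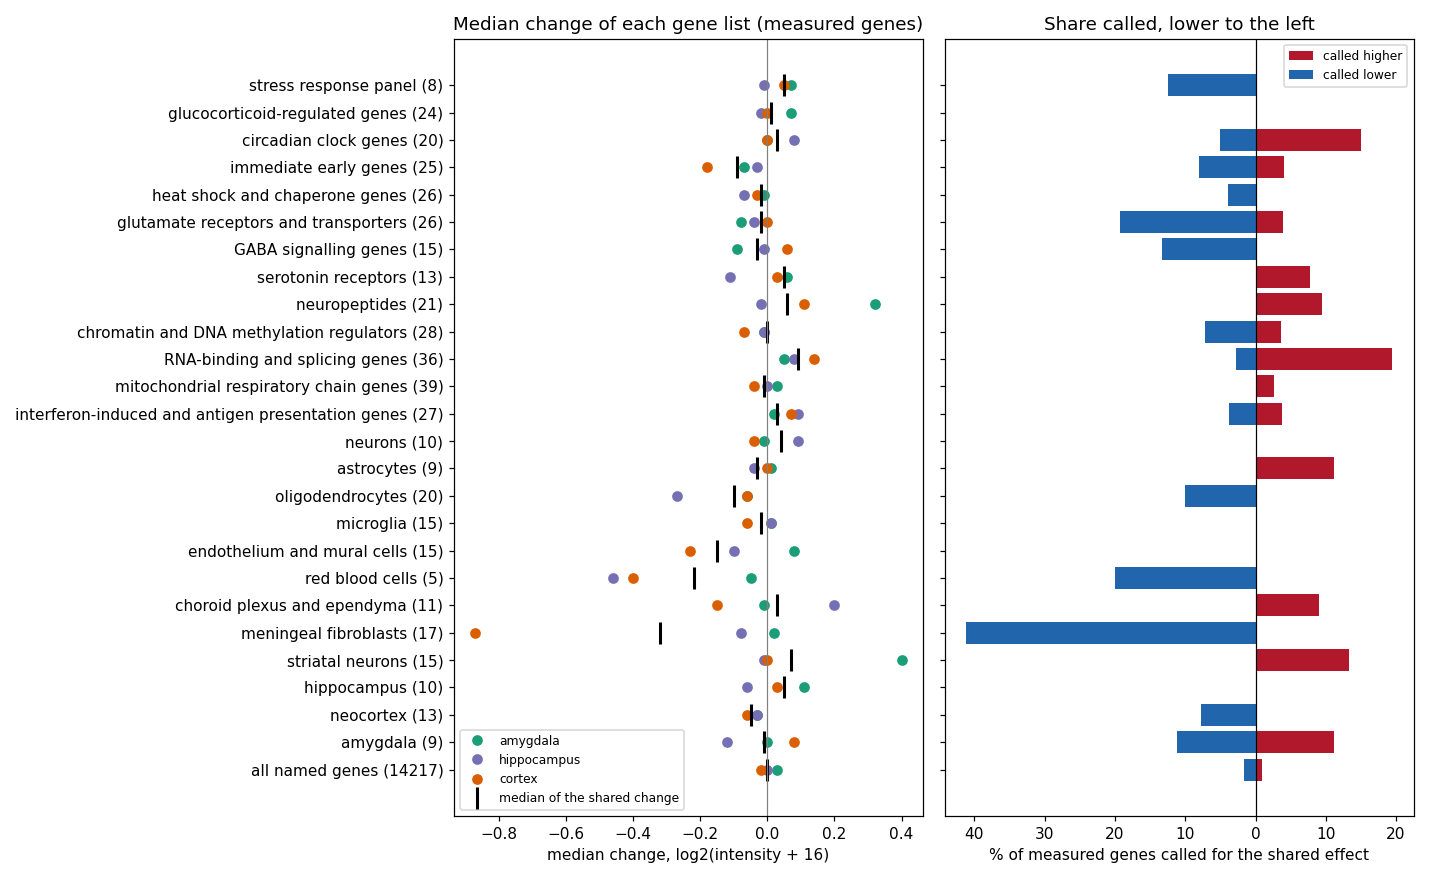
Left, median change of each gene list (log2 scale) in each region (points) and for the shared change (bars), with the number of measured genes in brackets. Right, percentage of those genes called lower (to the left) and higher (to the right), with all 14217 named genes in the bottom line at 1.64% lower and 0.914% higher.

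The receptors and classical targets of stress hormones moved little in common. Of the panel of 8 stress-response genes, Fos alone was called. Nr3c1, the glucocorticoid receptor, had a shared change of 0.07 ± 0.05, Nr3c2, the mineralocorticoid receptor, 0.06 ± 0.04, Fkbp5, a co-chaperone of these receptors, 0.02 ± 0.07, Sgk1 0.09 ± 0.04 and Tsc22d3 0.09 ± 0.05 (SE). Crh, the hypothalamic releasing hormone that is also made in cortex and amygdala, changed by -0.02 ± 0.12, and Bdnf, a neurotrophin, by 0.04 ± 0.06. Adjusted p-values of these 7 lay between 0.296 and 0.975 (limma). Among 24 glucocorticoid-regulated genes, a list that overlaps this panel, limma called 0 (4 had an unadjusted p under 0.05) and the median shared change was 0.01. Over all named genes 2.55% were called and the median was 0.0. Of all 31042 probe sets 4095 had an unadjusted p under 0.05 (limma). A list of 24 genes with 0 called is therefore not set apart from all genes.

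Immediate early genes, which neurons switch on with activity, lay mostly below 0. Of 25 measured, 5 had a shared change above 0, and the median was -0.09. Of all 14217 named genes 7326 were above 0, with a median of 0.0, and 2.55% were called. Ptgs2, the inducible cyclooxygenase, was called higher at 0.38, and Fos and Jund, components of the transcription factor AP-1, were called lower. Fos read 51.5, 51.5 and 54.2 under stress against 90.4, 74.6 and 92.8 in amygdala, 66.9, 31.6 and 46.4 against 52.1, 36.7 and 58.7 in hippocampus, and 81.8, 65.5 and 68.0 against 158, 147 and 136 in cortex. Stress and handled arrays were apart in amygdala and cortex and overlapped in hippocampus, and Fos passed in no region alone (limma adjusted p = 0.187, 0.971 and 0.0511 in amygdala, hippocampus and cortex). This gave a shared change of -0.50 ± 0.11 (SE; limma adjusted p = 0.0119), which did not pass in a mean without amygdala (0.111) or without cortex (0.315).

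Jund, far brighter, was lower in every region. Its stress arrays read 1782, 1854 and 2160 in amygdala, 1911, 1802 and 1863 in hippocampus and 2417, 1972 and 2168 in cortex. The handled arrays read 2793, 2842 and 3089, then 2501, 2424 and 2381, then 2819, 2573 and 2450. There was no overlap, with the cortex closest, and the shared change was -0.41 ± 0.04 (SE; limma adjusted p = 1.47e-05). Of its 2 other probe sets 1 was called lower and 1 pointed the opposite way.

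Several glutamate receptor subunits fell. Of 26 glutamate receptor and transporter genes, 5 were called lower and 1 higher, although the median shared change of the list was -0.02. Over all named genes 1.64% were called lower and 0.914% higher. Grin2b, an NMDA receptor subunit, read 150, 151 and 262 under stress against 324, 333 and 368 in amygdala, 309, 165 and 240 against 324, 349 and 333 in hippocampus, and 294, 250 and 251 against 295, 312 and 348 in cortex. The groups did not overlap, though only just in cortex, and the shared change was -0.54 ± 0.10 (SE; limma adjusted p = 0.00395). Grm5, a metabotropic receptor, changed by -0.50, Grin3a by -0.41 and Grin2a by -0.30, each most in amygdala at -0.81, -0.80 and -0.67. Gria1, an AMPA receptor subunit, was called at -0.39 but was not of 1 sign, with -1.02 in amygdala and 0.10 in cortex. Slc1a3, the astrocyte glutamate transporter, rose by 0.13. In a mean without the amygdala none of the 6 passed, and the calls of Grin3a and Slc1a3 held in 15 and 10 of 30 other settings.

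On the inhibitory side 2 of 15 genes of GABA signalling were called, both lower. Over all named genes 1.64% were called lower and 0.914% higher. Gabbr2, a subunit of the metabotropic GABA-B receptor, read 1404, 1134 and 1367 under stress in amygdala, 1156, 1224 and 1308 in hippocampus and 1282, 1267 and 1287 in cortex. Handled arrays read 1529, 1657 and 1730, then 1451, 1438 and 1510, then 1751, 1692 and 1693. Its groups did not overlap in any region, and its changes were -0.33, -0.25 and -0.42 (shared -0.33 ± 0.04, SE; limma adjusted p = 4.84e-05). Gabra2, an ionotropic subunit, changed by -0.30, mostly in amygdala at -0.64, and its call held in 15 of 30 other settings. Of 21 neuropeptide genes, Penk, which encodes enkephalins, was called at 0.23 and Npy at 0.18, each most in amygdala at 0.40 and 0.39. Penk is also a striatal marker, and the summed intensity of 15 striatal markers in amygdala was 6867 to 7395 under stress and 5513 to 5912 with handling, whose part in this result was not tested. Penk missed the threshold without hippocampus stress array 3, amygdala handled array 1 or 3, or cortex stress array 2 or 3 (limma adjusted p = 0.0508 to 0.0581), and the call of Npy held in 13 of 30 other settings.

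Dnmt3a and Setd5 fell among the regulators of DNA and chromatin. Dnmt3a, a de novo DNA methyltransferase, read 24.1, 35.5 and 38.0 under stress against 94.2, 94.9 and 112 in amygdala, 65.8, 32.8 and 46.5 against 93.8, 92.3 and 90.3 in hippocampus, and 66.1, 63.8 and 53.8 against 77.1, 87.6 and 86.7 in cortex. No region overlapped, and the shared change was -0.81 ± 0.10 (SE; limma adjusted p = 9.48e-05). Setd5, a chromatin regulator with a SET domain, changed by -0.63. Its changes were -1.19 in amygdala, -0.46 in hippocampus and -0.24 in cortex, where the arrays overlapped. It did not pass in a mean without amygdala (limma adjusted p = 0.115), and 1 of its 2 other probe sets pointed the opposite way. Hdac2, a histone deacetylase, rose by 0.19, a call that held in 12 of 30 other settings. Over all named genes 0.914% were called higher and 1.64% lower. Among 28 listed genes of chromatin and DNA methylation these were the calls, 1 higher and 2 lower, and the median shared change was -0.0. Brd1, which binds acetylated histones and is not on that list, changed by -0.70 at a mean intensity of only 13.4.

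The remaining large decreases had varied roles. Gucy1a2, a subunit of the nitric oxide receptor guanylate cyclase, had the largest named change at -1.04 ± 0.18 (SE; limma adjusted p = 0.0018), with 19.6, 13.2 and 38.4 under stress against 71.2, 40.8 and 100 in amygdala, and no overlap in any region. Fbxo15, an F-box protein, changed by -0.73, Stox2 by -0.73 and C11h3orf70 by -0.66, all without overlap. Dnajb14, a chaperone of the endoplasmic reticulum, changed by -0.67, and Pnma8b by -0.75, from -1.38 in amygdala to -0.16 in cortex. Topbp1, a DNA damage response scaffold, changed by -0.73, and Socs2, a suppressor of cytokine signalling, by -0.71. In cortex their changes were -0.21 and -0.19, and stress and handled arrays overlapped there. The call of Topbp1 was lost in a mean without hippocampus, and its other probe set pointed the opposite way. Socs2 was dim, at a mean intensity of 22.6, and lost its call in a mean without amygdala or without hippocampus. Anp32a, a phosphatase-regulating acidic protein, changed by -0.67 with cortex arrays of 323, 380 and 431 against 816, 805 and 823 but overlapping amygdala and hippocampus. The dim probe sets of Zfand5 (-0.73) and Wdr33 (-0.70) were near the threshold, and their calls held in 5 of 29 and 10 of 30 other settings. The largest change of any called probe set was on 1370751_at, which has no symbol, at -1.50 ± 0.19 (SE; limma adjusted p = 9.48e-05), with 844, 602 and 1860 under stress against 4066, 4224 and 5744 in amygdala.

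Ensa and Pals2 were lower with little spread between arrays. Ensa, an inhibitor of the phosphatase PP2A when phosphorylated, read 397, 318 and 356 under stress in amygdala, 389, 297 and 350 in hippocampus and 351, 394 and 347 in cortex. Handled arrays read 559, 555 and 604, then 512, 461 and 443, then 517, 483 and 476, so the groups were well apart (-0.51 ± 0.05, SE; limma adjusted p = 1.2e-05). Pals2, a scaffold of cell junctions, changed by -0.39 ± 0.04 without overlap, most in amygdala at -0.71. Both have probe sets that disagree, 2 of 2 others for Ensa and 1 of 4 others for Pals2. This was common: for the 206 lower genes with another probe set, 233 of 400 such probe sets (58.2%) pointed the same way, and for the 78 higher genes 82 of 130 (63.1%). The other probe sets had median shared changes of -0.04 and 0.032, and over 1 probe set was called for 19 lower and 3 higher genes. Called in the opposite direction were 7 other probe sets of the lower genes and 8 of the higher genes. Which part of a transcript each probe set reads is not known here.

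Of 20 oligodendrocyte markers, 2 had a shared change above 0 and 9 were lower in all 3 regions. Of all 14217 named genes, 7326 were above 0, 2225 were lower in all 3 regions and 1.64% were called lower. Among the markers 2 were called lower, Bcas1 at -0.24 ± 0.04 and Cldn11 at -0.17 ± 0.04 (SE). Bcas1, a myelin-associated protein, read 1141, 1111 and 1124 under stress against 1213, 1398 and 1262 in amygdala, 1547, 1348 and 1434 against 1753, 1758 and 1824 in hippocampus, and 597, 596 and 551 against 711, 688 and 646 in cortex. It did not overlap in any region. The summed intensity of the 20 markers did not overlap in hippocampus (22199 to 24557 under stress, 26205 to 28748 with handling) or cortex (13267 to 13585 and 13627 to 14330) but did in amygdala (19375 to 20696 and 20142 to 21192). Lpar1 fell in all 3 regions, amygdala included, and these markers' part in its change was not tested. Cldn11 missed the threshold without amygdala handled array 3, cortex stress array 3 or cortex handled array 1 (limma adjusted p = 0.0527 to 0.0536).

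Meningeal fibroblast markers were called lower most often, 7 of 17 against 1.64% of all named genes, mainly in cortex. Their median change was 0.02 in amygdala, -0.08 in hippocampus and -0.87 in cortex, and their summed cortical intensity was 2381 to 2459 under stress and 5310 to 5542 with handling. Ptgds, which makes prostaglandin D2 and is abundant in meninges, was of 1 sign by a hair: 666, 734 and 678 under stress against 683, 734 and 709 in amygdala, 1214, 1181 and 1217 against 1624, 1446 and 1536 in hippocampus, and 1448, 1370 and 1367 against 3178, 2971 and 3019 in cortex. Amygdala overlapped while the other regions were apart, and the F test between regions passed (limma adjusted p = 7.77e-07). The collagen genes Col1a1 and Col1a2 were lower in all 3 regions on a probe set each, at -0.78 and -0.84, and Col1a1 missed the threshold without cortex stress array 1 (limma adjusted p = 0.051). Both encode chains of type I collagen, and their other probe sets were lower too in the mean. Col3a1 (-0.60) and Ogn (-0.37) were also called but had mixed sign, with -1.22 and -0.95 in cortex. The call of Ogn held in 8 of 30 other settings. Igf2, Igfbp2 and Col1a2 on its brighter probe set, which count among the 7, had mixed sign as well.

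**Figure D4:**
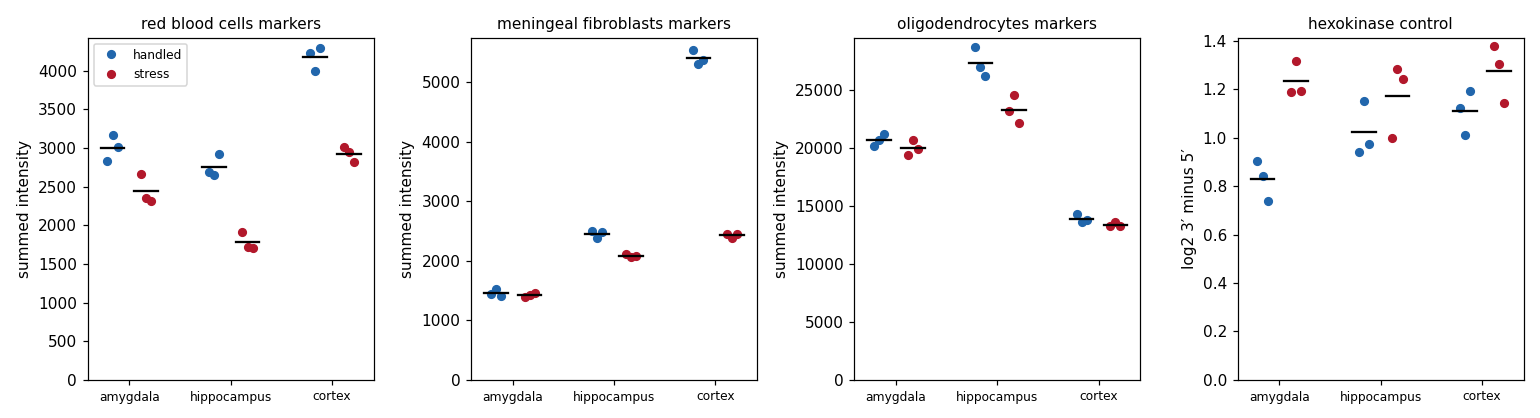
Summed linear intensity of 5 red blood cell, 17 meningeal fibroblast and 20 oligodendrocyte markers, and the log2 difference between the 3′ and 5′ hexokinase control probe sets, on each array by region. Points are arrays and bars group means. The red blood cell sum, most of it from Hbb, is lower under stress in each region. The meningeal sum is lower mainly in cortex, and the hexokinase difference is apart in amygdala alone.

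A group of 40 called probe sets had no common sign, 6 with a higher and 34 with a lower mean, and 9 of these passed the F test between regions. Ttr, the thyroid hormone carrier made by choroid plexus, read 3408, 3549 and 3274 under stress against 1038, 1128 and 1138 in hippocampus and 678, 701 and 721 against 558, 495 and 482 in amygdala, with overlap in cortex. The 11 choroid plexus and ependymal markers, Ttr among them, summed to 4442 to 4563 under stress and 1958 to 2121 with handling in hippocampus. Ttr itself made up most of these sums. The median change of the 11 markers in hippocampus was 0.2, and their part in this result was not tested. Lsamp, a neuronal adhesion protein, changed by -0.95 in amygdala and 0.01 in cortex. Igf2 changed by -1.53 in cortex, 0.17 in hippocampus and -0.03 in amygdala. Cyp26b1, which degrades retinoic acid, changed by -0.81 in cortex and 0.11 in hippocampus.

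Other lists held few called genes in number. Over all named genes 2.55% were called. The share was 3.85% of heat shock and chaperone genes, 2.56% of respiratory chain genes and 7.41% of interferon-induced and antigen presentation genes. Cryab, a small heat shock protein, was the 1 called of 26 heat shock and chaperone genes, at -0.34, and its groups did not overlap in any region. Sdhd, a subunit of succinate dehydrogenase, was the 1 called of 39 genes of the mitochondrial respiratory chain, at 0.15, and it missed the threshold without cortex stress array 3 (limma adjusted p = 0.054) or cortex handled array 2 (0.0522). Of 27 interferon-induced and antigen presentation genes Rtp4 was called higher and Cd74, an invariant chain of class II molecules, lower with mixed sign, from -1.23 in cortex to 0.16 in hippocampus. Etv1, a transcription factor of deep cortical layers, changed by -0.28 ± 0.04 (SE) without overlap in any region. Wipf3, an actin regulator (0.26), Spry2, an inhibitor of growth factor signalling (0.32), and Got1, an aspartate aminotransferase (0.27), completed the higher genes with the smallest p. In limma 0 markers were called among 10 of neurons, 15 of microglia, 15 of endothelium and mural cells and 10 of the hippocampus, and 3, 1, 4 and 4 of them had an unadjusted p under 0.05.

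Brightness went with being called. In the brightest of 10 equal bins of probe sets, with mean intensities of 477 to 14100, 293 were called, 102 higher and 191 lower, and 46.7% had 1 sign. In the dimmest bin limma called 0 of 3105 probe sets (99 had an unadjusted p under 0.05) and 24.2% had 1 sign. The median intensity was 469 for the 204 higher, 348 for the 445 lower and 52.3 for all probe sets. The difference between the 3′ and 5′ ends of a control transcript is a sign of RNA quality. The hexokinase 3′ probe set exceeded the 5′ one by 1.23 ± 0.07 under stress and 0.83 ± 0.08 with handling in amygdala, 1.17 ± 0.15 and 1.02 ± 0.11 in hippocampus, and 1.28 ± 0.12 and 1.11 ± 0.09 in cortex (log2, SD, n = 3). The same difference shifted by 0.03 for actin and -0.03 for GAPDH in the mean of the regions. For the control dap the mean log2 intensity of its probe sets was read, not a difference between ends. This level was lower under stress in amygdala by a log2 difference of -0.51, without overlap, and shifted by 0.04 in hippocampus and 0.01 in cortex. The part of these shifts in the lower calls was not tested.

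**Figure D5:**
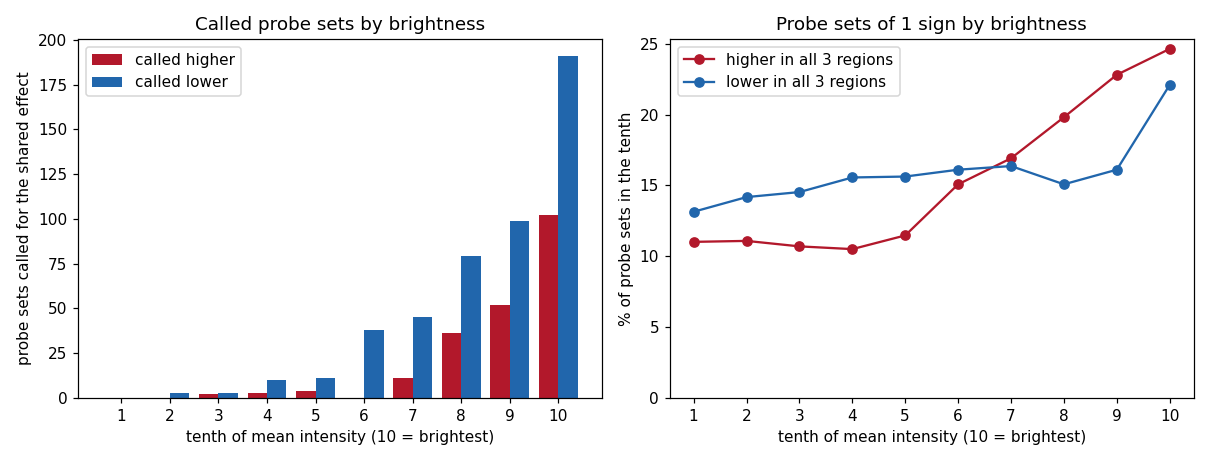
Left, number of probe sets called higher and lower for the shared effect in each of 10 equal bins of mean intensity, from dimmest (1) to brightest (10). Right, percentage of probe sets higher or lower in all 3 regions in each bin, which for both directions is largest in the brightest bin.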

How the data were processed

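Total RNA of 18 rat brain samples was measured on Affymetrix expression arrays, 3 per group. The authors deposited linear intensities, 1 per probe set and array. From the values, each array had been scaled to a common mean: with 2% cut from either end, means lay between 150.04 and 150.05. The probe summary software is not given in the sources used here. Median intensities were 49.1 to 56.4, with a highest value of 20582, and the number of arrays limits the precision.

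Probe sets were named from the platform annotation, updated through RefSeq (GRCr8) identifiers. Of 31099 probe sets, 20832 had 1 symbol, 436 several and 9831 none. The 57 control probe sets were left out. Values were taken as log2(intensity + 16), which understates changes of dim genes. Group means over the 6 groups were fitted with limma 3.58.1 in R 4.3.3 (12 residual and 8.9 prior degrees of freedom, variance trend). Two-sided p-values were adjusted by Benjamini-Hochberg over 31042 probe sets. The fit was tested on simulated data.

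The text names the 15 genes of 1 sign with the largest shared change in each direction, up to 5 more per direction by p, up to 5 of mixed sign, called members of gene lists, and 8 stress-response genes. Other probe sets and list members were named after their values were seen. A gene of a list was read by its brightest probe set. The members and lists were chosen with earlier results of these data known. Alternatives were another pseudocount, a filter on dim probe sets, median centring, quantile normalization, no variance trend, replicate blocks, each array left out and each region left out. Between groups of the same treatment, deviations from the group means had correlations of -0.044 to 0.1 for arrays with equal replicate numbers. For unlike numbers the correlations were -0.147 to 0.11. As the labels tie no number to an animal, these values cannot show whether arrays share animals.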

Additional observations from a re-analysis of the deposited data

Results flagged for a closer look

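For 12 of the probe sets called for the shared change that have a gene symbol, the stress effect itself differed between the 3 regions (F test over the regional differences, limma, Benjamini-Hochberg over all probe sets). Ptgds, the prostaglandin D2 synthase, differed with an adjusted p of 7.77e-07, with -1.12 in cortex, -0.35 in hippocampus and -0.03 in amygdala. Igf2, a growth factor, had 3.57e-05, Igfbp2, which binds it, 0.000412, and the type I collagen gene Col1a2 on probe set 1387854_at 0.0374, and all of these changed most in cortex, at -1.53, -1.28 and -1.44. Cyp26b1 (0.000339) likewise had its largest change in cortex, at -0.81. Ttr (0.000598) changed most in hippocampus, at 1.62. The remaining ones changed most in amygdala, namely Ahi1 (0.00285) at -1.18, Hpcal4 (0.0463) at -1.18, Lsamp (0.00285) at -0.95, Gria1 (0.0236) at -1.02, Pals2 (0.041) at -0.71 and Scn4b (0.0488) at 0.96. Of the 12, Ptgds, Ahi1, Pals2, Hpcal4 and Scn4b had 1 sign in all 3 regions.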

How the results depend on the processing

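The shared effect was refitted under 30 other settings. Of the 78 named probe sets called, 24 kept the call under every setting and 51 in every fit of 17 or 18 arrays over the 3 regions, and 1 turned its sign, Igf2, which was 0.071 (limma adjusted p = 0.808) in a mean without cortex. Against 689 calls, a pseudocount of 1 gave 685 and of 64 gave 696, a filter on dim probe sets 868 of 18625, with 75 in cortex alone, and quantile normalization 665. Median centring gave 613, of which 39.2% were higher against 30.5% before. Without a variance trend 250 were called (47 higher, 203 lower, 236 of 1 sign), with 138 in amygdala, 31 in hippocampus, 25 in cortex, 0 in all 3 regions and 14 by the F test between regions. In a mean without amygdala 183 were called (55 higher, 128 lower), without hippocampus 371 (83 higher, 288 lower) and without cortex 502 (133 higher). With the replicate number as a fixed block 670 were called, as a random block 714 (correlation -0.009), and with regions averaged within a replicate number, as a block of 3 against 3, 448 (113 higher), and there Fos had an adjusted p of 0.0529. The numbers mark no shared animal in the labels. Leaving out 1 array gave 470 to 966 calls, 129 to 381 higher, 339 to 585 lower, 439 to 921 of 1 sign, and 9058 to 10226 of 1 sign called or not. In single regions it gave 120 to 403 in amygdala, 24 to 80 in hippocampus, 24 to 96 in cortex and 6 to 12 in all 3. The F test called 13 to 37, with 13 without amygdala handled array 3 or cortex handled array 1, 14 without amygdala stress array 1, any cortex stress array or cortex handled array 3, 15 without hippocampus handled array 3 or cortex handled array 2, and 37 without amygdala stress array 3. The cause of these shifts was not tested. Signal over background limits the dim probe sets, of which few were called, and near copies such as haemoglobins cannot be separated.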
